A study of Mus musculus with 8 samples.

Results

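The genes described here are 42 genes of the cell division cycle, chosen by name: cyclins, cyclin-dependent kinases, mitotic genes and S-phase enzymes. Every one had at least 1 probe on the array, among 36666 gene names, and 25 of the 42 were bright enough to be tested, among 17565 genes tested in all. By role they comprised 10 genes of G1 and its exit, 5 genes of S phase and 27 genes of G2 and mitosis. They were measured in total RNA of whole liver, on 1 single-colour Agilent array per sample. The groups were 4 samples from male mice aged 80 weeks (80W) and 4 from male mice aged 8 weeks (8W), all taken 8 h after acetaminophen, the analgesic that injures hepatocytes around the central vein at high dose. Every liver in both groups had thus received the drug, and untreated livers were not analysed here, so an age difference at rest and an age difference in the response cannot be told apart. The labels give neither dose nor strain, and they do not say that each sample was its own animal. The p-values therefore rest on the variation among these arrays, part or all of which may be technical.

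The division cycle is driven by cyclins, which bind and activate cyclin-dependent kinases in turn. D-type cyclins with Cdk4 open G1, E-type cyclins with Cdk2 release the E2F transcription factors that switch on the genes of DNA replication, and A-type and B-type cyclins with Cdk1 drive mitosis. Adult hepatocytes are mostly quiescent, and they re-enter the cycle after tissue loss or toxic injury. After an injurious dose of acetaminophen in mice, hepatocyte DNA synthesis is usually seen from the day after dosing onward. In quiescent cells many mitotic genes are held off by a repressor complex that binds the cell cycle genes homology region (CHR) of their promoters, near CCAAT boxes bound by NF-Y.

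The promoter letters shared by the mitotic genes were examined because the rule that chose the genes used names only. RefSeq windows of 300 bases, 250 before to 50 after a gene's start on mouse build GRCm38.p6, were matched for 34 of the 42 genes. No window was matched for Ccnd1, Ccnd2, Ccne2, Ccna2, Aurkb, Tpx2, Kif20a or Foxm1. The letters searched on both strands were TTTGAA or TTCGAA for the CHR, CCAAT for the CCAAT box, and TTTGGCGC, TTTCCCGC, TTTCGCGC or TTTGCCGC for an E2F site. Matches of 1 motif may overlap each other where both strands match. The windows below belong to 5 mitotic genes that the results turn on and to E2f8, the gene with the largest positive difference. They read 5′ to 3′ on the gene's strand, and capitals mark the matched CHR and CCAAT letters, which read TTCAAA and ATTGG where the match is on the opposite strand. Their positions are chr9:70421505-70421804 (minus strand) for Ccnb2, chr7:122159185-122159484 (plus) for Plk1 and chr4:118437294-118437593 (minus) for Cdc20. Those of the other windows are chr7:135716330-135716629 (minus) for Mki67, chr2:164769679-164769978 (plus) for Ube2c and chr7:48881547-48881846 (minus) for E2f8.
Ccnb2: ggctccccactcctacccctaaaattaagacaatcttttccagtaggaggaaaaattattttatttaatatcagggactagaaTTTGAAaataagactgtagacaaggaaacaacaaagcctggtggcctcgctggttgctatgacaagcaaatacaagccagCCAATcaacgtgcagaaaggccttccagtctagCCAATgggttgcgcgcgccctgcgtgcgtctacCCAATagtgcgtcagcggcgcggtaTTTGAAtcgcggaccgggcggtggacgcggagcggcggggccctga
Plk1: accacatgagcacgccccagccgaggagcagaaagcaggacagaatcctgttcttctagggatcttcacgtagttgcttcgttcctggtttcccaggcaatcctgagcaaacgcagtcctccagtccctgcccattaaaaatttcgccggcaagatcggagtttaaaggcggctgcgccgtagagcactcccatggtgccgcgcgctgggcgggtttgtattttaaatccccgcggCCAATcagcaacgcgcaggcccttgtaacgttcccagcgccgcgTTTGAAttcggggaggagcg
Cdc20: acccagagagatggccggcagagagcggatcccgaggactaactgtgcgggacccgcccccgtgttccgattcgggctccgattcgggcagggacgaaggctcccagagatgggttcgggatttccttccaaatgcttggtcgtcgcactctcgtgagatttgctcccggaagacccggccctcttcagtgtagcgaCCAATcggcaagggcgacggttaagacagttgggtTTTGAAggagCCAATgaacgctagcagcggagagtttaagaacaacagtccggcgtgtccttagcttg
Mki67: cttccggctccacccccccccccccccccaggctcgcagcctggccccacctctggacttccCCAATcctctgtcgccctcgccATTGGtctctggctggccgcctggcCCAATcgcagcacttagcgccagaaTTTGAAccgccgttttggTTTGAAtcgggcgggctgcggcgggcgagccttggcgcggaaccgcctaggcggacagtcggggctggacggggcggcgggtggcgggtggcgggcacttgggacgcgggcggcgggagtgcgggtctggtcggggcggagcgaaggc
Ube2c: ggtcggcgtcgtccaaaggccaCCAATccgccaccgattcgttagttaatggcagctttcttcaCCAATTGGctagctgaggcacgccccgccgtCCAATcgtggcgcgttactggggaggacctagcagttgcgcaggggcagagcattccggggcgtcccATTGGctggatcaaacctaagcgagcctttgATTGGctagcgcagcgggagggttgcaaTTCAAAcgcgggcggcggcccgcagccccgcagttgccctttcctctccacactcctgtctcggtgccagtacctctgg
E2f8: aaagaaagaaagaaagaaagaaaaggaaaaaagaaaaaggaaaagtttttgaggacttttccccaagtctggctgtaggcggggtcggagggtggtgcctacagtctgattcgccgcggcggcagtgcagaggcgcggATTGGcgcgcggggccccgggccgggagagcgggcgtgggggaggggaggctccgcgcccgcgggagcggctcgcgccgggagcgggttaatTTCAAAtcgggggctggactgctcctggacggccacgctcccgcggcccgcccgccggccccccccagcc
Plk1 and Cdc20 show the common arrangement, a CCAAT box a short way before a CHR near the start. In Mki67 the 2 CHR matches follow 3 CCAAT matches further upstream.

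CHR letters were present in 16 of 22 mitotic genes with a window (72.7%), in 2 of 7 G1 genes (28.6%) and in 0 of 5 S-phase genes, against 21.7% of the 27025 genes in the promoter table. The G1 genes with them were E2f8 and E2f2. CCAAT letters were present in 18 of 22 mitotic genes (81.8%), 4 of 7 G1 genes (57.1%) and 3 of 5 S-phase genes (60.0%), against 41.1% of all genes in the table. Both motifs stood together in 16 of 22 mitotic genes, against 8.61% of all genes in the table. The first base of the 24 distinct CHR matches in mitotic windows lay between position -188 and position 41, counting the start as 1, and 15 of the 24 began at -60 or later. The 6 mitotic genes with a window and no CHR match were Ccnb1, Plk4, Mad2l1, Cenpe, Birc5 and Nusap1. E2F letters were found in 1 mitotic gene (Cdk1) and 2 G1 genes (Cdk2 and E2f2), against 2.60% of all genes in the table. A match describes letters in these windows and is not a measured binding site.

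**Figure D1:**
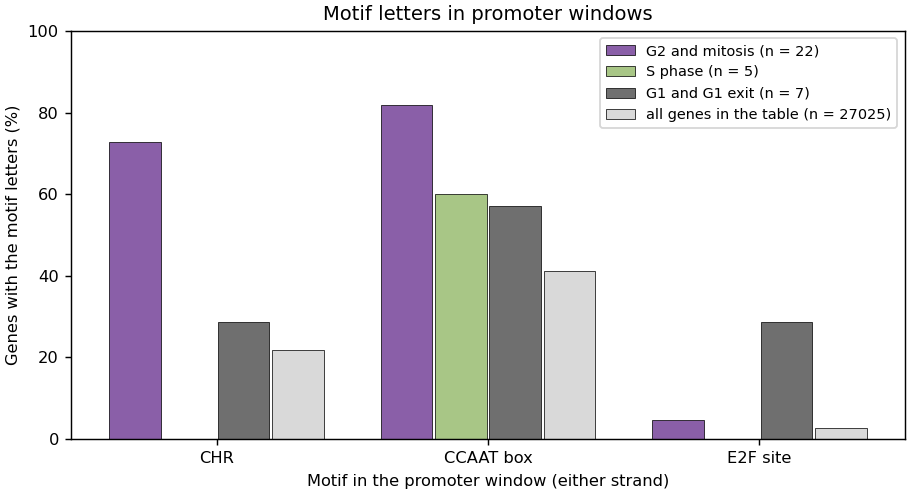
Share of genes (%) whose 300-base promoter window held the letters of each motif on either strand, for 22 mitotic, 5 S-phase and 7 G1 genes and all 27025 genes of the table. CHR letters stood in 72.7% of the mitotic genes, against 21.7% of all genes, and in 0 of 5 S-phase genes.

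Values below are log2 intensity after subtraction of the array's own 75th percentile, which ran from 154.7 to 352.8 intensity units. A positive difference means higher in 80W livers. Between 43.3% and 50.4% of probes per array were well above background, and the 8 hepatocyte markers checked (Alb, Apoa1, Ttr and others) were above it on all arrays. All arrays lay on 1 slide read in 1 scan, with the 80W samples on slide row 2 and the 8W samples on row 1, and age cannot be told apart from row. On the first principal component of all tested genes, which held 49.1% of the variance, the 80W arrays lay between 17.0 and 47.5. The 8W replicates 3 and 4 lay at 10.2 and 12.3, whereas 8W replicates 1 and 2 lay apart at -61.3 and -99.2. Those last 2 arrays also differed in part of the cell markers. The summed linear level of the 8 hepatocyte markers was 3207 to 5292 in 80W livers, and 3566 and 2183 in 8W replicates 1 and 2, against 4301 and 4618 in 8W replicates 3 and 4. Only 8W replicate 2 lay outside the 80W range. The summed linear level of 6 erythroid markers was 25.0 to 58.3 in 80W livers, and 108 and 97.4 in 8W replicates 1 and 2, against 24.5 and 30.8 in 8W replicates 3 and 4. Of 6 monocyte markers, Ccr2, a receptor of inflammatory monocytes, was above background on 8W replicates 1 and 2 only. The others were above it on all arrays. Chil3, Cd68 and Itgam were highest on 8W replicates 1 and 2, whereas Ly6c2 and Lyz2 were not highest on both. The summed level of the 6 monocyte markers overlapped between the ages, and was 64.9 to 145 in 80W livers. In 8W livers it was 106 and 187 in replicates 1 and 2, and 72.4 and 86.3 in replicates 3 and 4. The summed level of 6 cholangiocyte (bile duct) markers was 8.89 to 16.8 in 80W livers. It was 14.3 and 29.7 in 8W replicates 1 and 2, and 10.7 and 12.5 in 8W replicates 3 and 4. All 6 were above background on 8W replicate 2 only, and all but Sox9 were highest there. The part of hepatocytes, bile duct, blood or immune cells in the results below was not tested. In whole liver, fewer cells of a type and less RNA per cell cannot be told apart. Most results that rest on 8W replicates 1 and 2 are given with and without them.

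The genes of the 3 stages differed first in whether they could be seen at all, and a gene was counted where any of its probes was well above background. Of 10 G1 genes, 9 were above background on all 8 arrays, and Ccne2, an E-type cyclin, on none. All 5 S-phase genes were above background on all 8 arrays. Of 27 mitotic genes only 6 were above it on all arrays (Cdk1, Ccnb2, Ccnf, Mad2l1, Cenpa and Birc5), 15 were above it on 1 to 7 arrays and 6 on none. The 6 undetected genes were the kinase genes Aurkb, Plk4 and Bub1, the checkpoint gene Bub1b, the kinetochore gene Cenpf and Tpx2, an activator of Aurora A.

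The number of mitotic genes above background was 9, 11, 10 and 10 on the 80W arrays, and 18, 18, 11 and 9 on the 8W arrays. The age groups overlapped, and the high counts were those of 8W replicates 1 and 2. Over all probes, the share above background was 43.3%, 45.1%, 45.7% and 46.6% on the 80W arrays. It was 46.9%, 50.4%, 45.3% and 43.7% on the 8W arrays, so 8W replicates 1 and 2 also had the 2 highest shares. Among the 15 genes detected on 1 to 7 arrays, 80W arrays showed 3, 5, 4 and 4 of them, and 8W arrays 12, 12, 5 and 3. Of these 15 genes, 6 were above background on no 80W array and 2 on no 8W array. The first set was Top2a, Ccna2, Nusap1, Prc1, Ube2c and Foxm1, and the second was Kif11 and Kif20a.

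**Figure D2:**
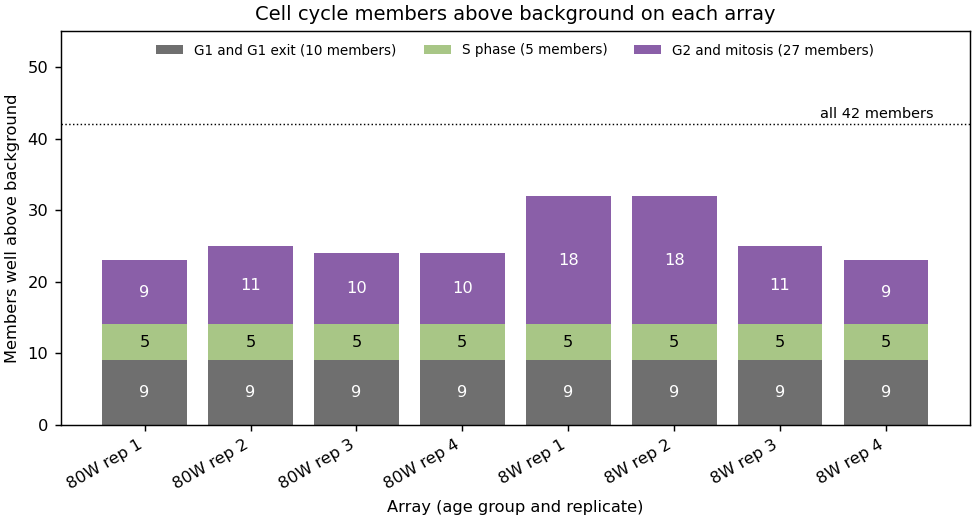
Number of genes well above background on each of the 8 arrays (bars), split into 10 G1, 5 S-phase and 27 mitotic genes. The G1 and S-phase counts are 9 and 5 on every array, and the mitotic count is 9 to 11 on 80W arrays and on 8W replicates 3 and 4, against 18 on 8W replicates 1 and 2.

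The question of the comparison was which of these genes differed between 80W and 8W livers at this time after the drug. None of the 25 tested genes passed the threshold of 0.05 on limma's p adjusted over all tested genes, where 0.359% of all tested genes did (0.33% higher and 0.0285% lower in 80W livers). At an unadjusted p under 0.05 there were 5, against 14.1% of all tested genes, with E2f8 and E2f1 higher (background 7.91%) and Ccnd1, Ccnd2 and Ccnb2 lower in 80W livers (background 6.14%). Their lowest adjusted p was 0.309. The 80W and 8W values did not overlap for 1 of the 25, Ccnd1, against 8.38% of all tested genes. By sign, 7 of the 25 were higher and 18 lower in 80W livers, with a median difference of -0.23, while 9132 of all tested genes were higher and 8433 lower, with a median of 0.02. Without a filter on dim probes, 11 of all 42 genes were higher and 31 lower, with a median of -0.20. The median was 0.19 for all 36666 gene names, many of which were too dim to be tested. The number at an unadjusted p under 0.05 was 0 without 80W replicate 3, 3 without 80W replicate 1, 1 without 8W replicate 1 and 2 without 8W replicate 2. It was 8 without 8W replicate 3 and 9 without 8W replicate 4. Without 8W replicates 1 and 2 together it was 2. In that setting Cdk2, E2f2, Rrm1, Mki67 and Birc5 turned from lower to higher in 80W livers. The lean by sign thus rested in part on those arrays.

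By stage, G1 genes had a median difference of -0.52, S-phase genes of -0.06 and mitotic genes of -0.23, and the stages were not tested against each other. Of the tested genes, 2 G1 genes were higher and 7 lower, 2 S-phase genes higher and 3 lower, and 3 mitotic genes higher and 8 lower. Over every listed gene, with no filter, the medians were -0.52, -0.06 and -0.16. These counts describe genes that partly had to pass a brightness filter, and a dim gene can pass it through the group where it is brighter. Without 8W replicates 1 and 2, the medians were -0.09 for G1, 0.06 for S phase and -0.09 for mitosis. Over all tested genes the median in that setting was -0.06. The mitotic median was 0.01 without 8W replicate 1 alone and 0.05 over the 6 genes above background on every array, but -0.41 without 8W replicate 4 and -0.46 over the genes above background on at least 1 array. The S-phase median was 0.10 without 8W replicate 2, 0.01 without 8W replicate 4 and 0.02 with array weights.

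**Figure D3:**
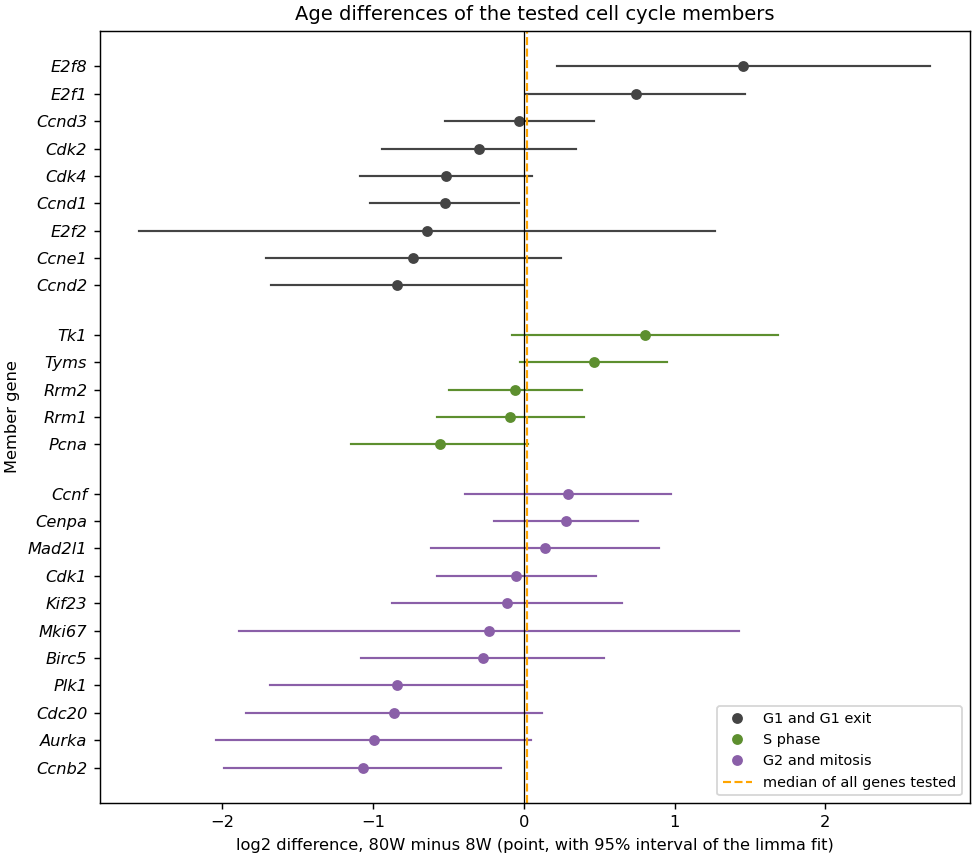
Log2 difference, 80W minus 8W, of the 25 tested genes (points) with the 95% interval of the limma fit (lines), by stage. Intervals lie wholly above 0 for E2f8 and E2f1 and wholly below 0 for Ccnd1, Ccnd2 and Ccnb2, and none of these genes passed the adjusted threshold. The dashed line is the median of all tested genes, 0.02.

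The D-type cyclins, which carry growth signals into G1, are taken first. Ccnd1, cyclin D1, had log2 intensities of 0.90, 1.03, 0.29 and 0.93 in 80W livers, against 1.29, 1.32, 1.06 and 1.60 in 8W livers (probe at chr7:152116202-152116261, build mm9). Every 80W value lay below every 8W value, although 80W replicate 2 and 8W replicate 3 nearly met. The means were 0.79 ± 0.34 in 80W and 1.32 ± 0.22 in 8W livers (SD, n = 4 each), a difference of -0.53 (SE 0.22, 95% interval -1.02 to -0.03, adjusted p = 0.342), and it was -0.54 without 8W replicates 1 and 2. Ccnd2, cyclin D2, had 2.44, 1.92, 1.61 and 1.44 in 80W livers, against 3.23, 3.41, 1.99 and 2.13 in 8W livers. The groups overlapped, and 8W replicates 1 and 2 were above all other arrays. The difference was -0.84 (SE 0.37, adjusted p = 0.355), and -0.21 without 8W replicates 1 and 2. Its 3 usable probes gave differences from -0.93 to -0.84. Ccnd3, cyclin D3, differed by -0.03 (95% interval -0.53 to 0.47), and its 3 usable probes gave -0.03 to 0.05, so its sign was not settled.

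For the kinases that these cyclins activate, the highest values were those of 8W replicates 1 and 2. Cdk4, the partner of D-type cyclins, had 2.53, 2.81, 2.55 and 2.77 in 80W livers, against 3.61, 3.60, 2.80 and 2.71 in 8W livers. The 4 80W values and 8W replicates 3 and 4 lay within a narrow band, with 8W replicates 1 and 2 above it. The difference was -0.52 (SE 0.25, adjusted p = 0.385), and -0.09 without those 2 arrays. Cdk2, the partner of E-type cyclins, had -2.31, -2.01, -2.20 and -1.90 in 80W livers, against -1.20, -1.44, -2.44 and -2.14 in 8W livers. It showed the same arrangement, with a difference of -0.30 (SE 0.29, adjusted p = 0.638) that turned to 0.19 without 8W replicates 1 and 2. Ccne1, cyclin E1, had 0.55, 1.12, -0.97 and 0.13 in 80W livers, against 1.37, 0.89, 0.22 and 1.27 in 8W livers. The groups overlapped, with 80W replicate 3 the lowest. The difference was -0.73 (SE 0.44, adjusted p = 0.449), or -0.54 without 8W replicates 1 and 2.

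The E2F factors did not move one way. E2f1, an activator of replication genes, had -1.28, -0.86, -0.54 and -0.60 in 80W livers, against -1.22, -2.49, -1.44 and -1.09 in 8W livers. The groups overlapped through 80W replicate 1, and 8W replicate 2 was the lowest array. The difference was 0.74 (SE 0.32, 95% interval 0.01 to 1.47, adjusted p = 0.354), and 0.45 without 8W replicates 1 and 2. E2f8, an atypical E2F that represses E2F targets and takes part in hepatocyte polyploidy in mice, had 0.48, 1.50, 1.60 and 0.88 in 80W livers, against -0.60, -1.95, 0.79 and 0.39 in 8W livers. The overlap was narrow, with 80W replicate 1 below 8W replicate 3, and 8W replicates 1 and 2 were below all other arrays. E2f8 averaged 1.11 ± 0.53 in 80W and -0.34 ± 1.22 in 8W livers (SD, n = 4 each), a difference of 1.46 (SE 0.55, 95% interval 0.22 to 2.69, adjusted p = 0.309), and 0.52 without those 2 arrays. This value is that of the probe at chr7:56121860-56121919 (mm9), above background on all 8 arrays. A second probe, at chr7:56130466-56130525, was above background on 0 of the 80W and 3 of the 8W arrays. Its difference had the opposite sign, at -0.62. The remaining probe was above background on 1 of the 80W and 0 of the 8W arrays, with a difference of 1.62. The E2f8 difference thus rests on 1 probe. E2f2, an activator related to E2f1, had -1.77, -1.14, -0.77 and -2.02 in 80W livers, against 1.19, 0.71, -2.58 and -2.46 in 8W livers. The 8W replicates lay on both sides of the 80W range, 1 and 2 above it and 3 and 4 below it. The difference was -0.64 (SE 0.85, adjusted p = 0.737) with all arrays and 1.09 without 8W replicates 1 and 2.

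**Figure D4:**
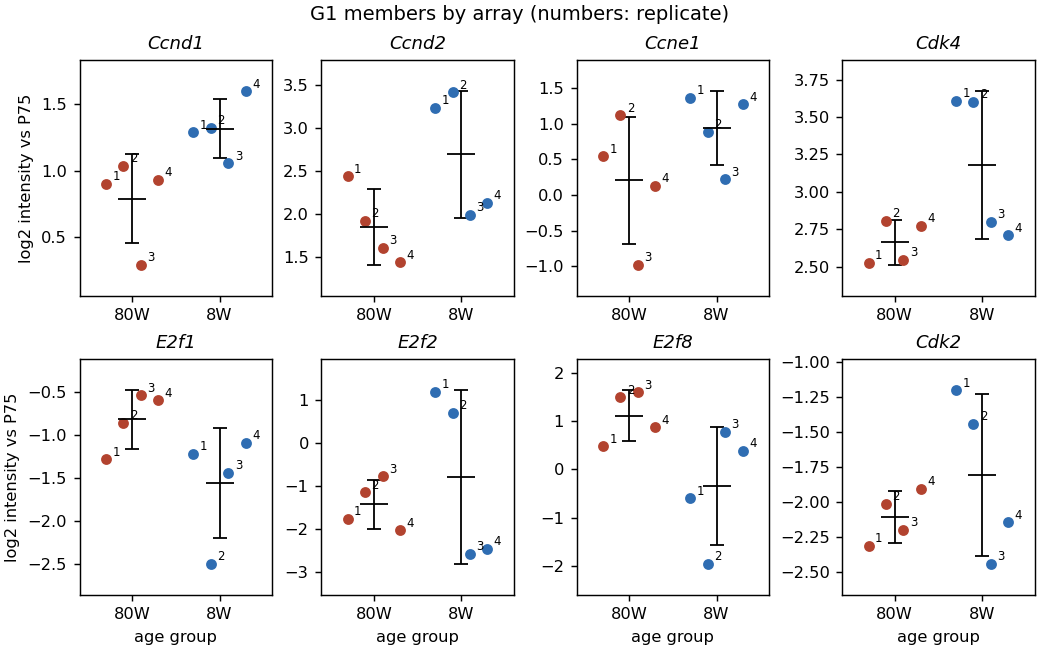
Log2 intensity relative to the 75th percentile (P75) of 8 G1 genes on each array (points, numbered by replicate), with group mean and SD, for 80W and 8W livers on scales set per panel. Ccnd1 values of the groups do not meet, whereas for Ccnd2, Cdk4, Cdk2 and E2f2 the 8W replicates 1 and 2 lie above the other 6 arrays and for E2f8 below them.

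The S-phase genes stood close to 0 as a group and pointed both ways. Pcna, the sliding clamp of DNA polymerases, had 3.34, 3.69, 3.85 and 4.04 in 80W livers, against 4.81, 4.47, 3.79 and 4.09 in 8W livers. The 8W replicates 1 and 2 were again the highest, and the difference was -0.56 (SE 0.26, adjusted p = 0.371), or -0.21 without them. Rrm2, the inducible subunit of ribonucleotide reductase, had 1.52, 1.37, 1.48 and 1.37 in 80W livers, against 1.14, 1.80, 1.35 and 1.68 in 8W livers. The 80W values lay inside the 8W range, with a difference of -0.06 (SE 0.19, 95% interval -0.49 to 0.38, adjusted p = 0.910). Rrm1, the large subunit, differed by -0.09 (95% interval -0.58 to 0.40), and the signs of both Rrm1 and Rrm2 turned when single arrays were left out.

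The enzymes of thymidine nucleotide supply were the S-phase genes with positive differences. Tyms, thymidylate synthase, had 1.33, 1.21, 1.78 and 1.66 in 80W livers, against 0.64, 1.05, 1.12 and 1.32 in 8W livers. The groups overlapped through 8W replicate 4, and the difference was 0.46 (SE 0.22, adjusted p = 0.372), or 0.28 without 8W replicates 1 and 2. Tk1, the thymidine kinase of the salvage route, had 1.09, 0.82, 1.39 and 1.38 in 80W livers, against 0.78, -0.77, 0.19 and 1.25 in 8W livers. The groups overlapped, with 80W replicates 3 and 4 above every 8W array and 8W replicate 2 the lowest, and the difference was 0.80 (SE 0.39, adjusted p = 0.385), or 0.45 without those 2 arrays. The 3 usable probes of Tk1 gave differences from 0.38 to 0.93.

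Among the mitotic cyclins and kinases, Ccnb2, cyclin B2, whose promoter window above holds 2 CHR and 3 CCAAT matches, had the largest negative difference of the 25. It had -1.37, -0.64, -2.09 and -1.19 in 80W livers, against 0.83, -0.71, -0.74 and -0.39 in 8W livers. Only 80W replicate 2 reached the 8W range. Ccnb2 averaged -1.32 ± 0.60 in 80W and -0.25 ± 0.74 in 8W livers (SD, n = 4 each), a difference of -1.07 (SE 0.41, 95% interval -1.99 to -0.15, adjusted p = 0.313), and -0.76 without 8W replicates 1 and 2. Aurka, Aurora A kinase of the spindle poles, had -3.49, -2.09, -2.72 and -1.96 in 80W livers, against -0.76, -0.90, -2.29 and -2.31 in 8W livers. The 8W replicates 1 and 2 were the highest arrays, 80W replicate 1 was not above background, and the difference was -1.00 (SE 0.46, adjusted p = 0.371), or -0.26 without those 2 arrays. Plk1, the polo-like kinase of mitotic entry, had -3.10, -2.69, -2.75 and -3.29 in 80W livers, against -0.93, -2.38, -2.76 and -2.40 in 8W livers. The groups overlapped at 8W replicate 3, 2 of the 80W arrays were not above background, and the difference was -0.84 (SE 0.38, adjusted p = 0.356), or -0.38 without 8W replicates 1 and 2. Cdk1, the mitotic kinase itself, was above background on all arrays, at -2.32, -2.87, -2.80 and -2.53 in 80W livers, against -2.41, -3.13, -2.49 and -2.30 in 8W livers. The ranges nearly coincided, with a difference of -0.05 (SE 0.23, 95% interval -0.58 to 0.48, adjusted p = 0.938). This is the value of 1 probe, at chr10:68797987-68798046 (mm9), and a second Cdk1 probe was above background on 0 arrays.

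Cdc20, the activator of the anaphase-promoting complex, had -2.54, -3.14, -3.58 and -2.77 in 80W livers, against -1.15, -1.59, -2.72 and -3.11 in 8W livers. It was above background on 2 of 4 80W arrays and 3 of 4 8W arrays, and its difference was -0.86 (SE 0.44, adjusted p = 0.394), or -0.09 without 8W replicates 1 and 2. Ube2c, the ubiquitin-conjugating enzyme of the same complex, was above background on 0 of 4 80W and 3 of 4 8W arrays. Its measured values were -3.99, -3.45, -3.22 and -3.37 in 80W livers, against -0.83, -1.51, -2.84 and -4.22 in 8W livers. The 8W livers thus spanned the whole 80W range, and Ube2c was at least 1.62-fold lower in 80W livers, by a bound that sets the 8W mean against the higher of the 80W value and the lowest level well above background on each array. Its adjusted p without a filter was 0.642. Without 8W replicates 1 and 2 no bound remained, as the means were -3.51 in 80W and -3.53 in 8W livers. Prc1, which cross-links the microtubules of the central spindle, was above background on 8W replicates 1 and 2 only and at least 1.17-fold lower in 80W livers by the same bound (adjusted p = 0.587 without a filter). Prc1 measured -4.24, -4.04, -5.26 and -3.64 in 80W livers, against -1.16, -2.03, -4.04 and -4.05 in 8W livers. Its bound was lost without 8W replicate 1, without 8W replicate 2 and without both, where the means were -4.29 in 80W and -4.04 in 8W livers. Both bounds are taken between means and leave out the error of sampling.

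Mki67, the proliferation marker Ki-67, had -2.13, -2.64, -2.57 and -2.82 in 80W livers, all above background. Its 8W values were -0.14 and -1.64 in replicates 1 and 2, and -3.32 and -4.15 in replicates 3 and 4, neither of these above background. The 80W livers formed a narrow band in the gap between the 8W pairs. The group means were -2.54 ± 0.29 in 80W and -2.31 ± 1.79 in 8W livers (SD, n = 4 each), a difference of -0.23 (SE 0.74, 95% interval -1.89 to 1.43, adjusted p = 0.900). It turned to 0.50 without 8W replicate 1 and to 1.19 without 8W replicates 1 and 2. Ccnf, cyclin F, a substrate receptor of a ubiquitin ligase, had 3.11, 2.77, 3.66 and 3.77 in 80W livers, against 2.42, 3.10, 3.55 and 3.07 in 8W livers. The groups overlapped, 8W replicate 1 was the lowest array, and the difference was 0.29 (SE 0.30, adjusted p = 0.669), or 0.01 without 8W replicates 1 and 2.

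The tested genes of the kinetochore, checkpoint and cytokinesis had small differences. Cenpa, the centromeric histone variant, differed by 0.28 (SE 0.21, 95% interval -0.20 to 0.76) and Mad2l1, a spindle checkpoint protein, by 0.14 (95% interval -0.62 to 0.89). Birc5, survivin of the chromosomal passenger complex, differed by -0.27 (95% interval -1.08 to 0.53), with 8W replicate 1 at 0.59 and the other 7 arrays between -1.09 and -0.39. Kif23, a motor of the central spindle, differed by -0.11 and was above background on 1 of 4 80W and 3 of 4 8W arrays. Cdc20, Plk1, Aurka and Mki67 had 8W replicates 1 and 2 above the range of the other 6 arrays, while Cenpa, Mad2l1, Kif23, Cdk1 and Birc5 did not.

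**Figure D5:**
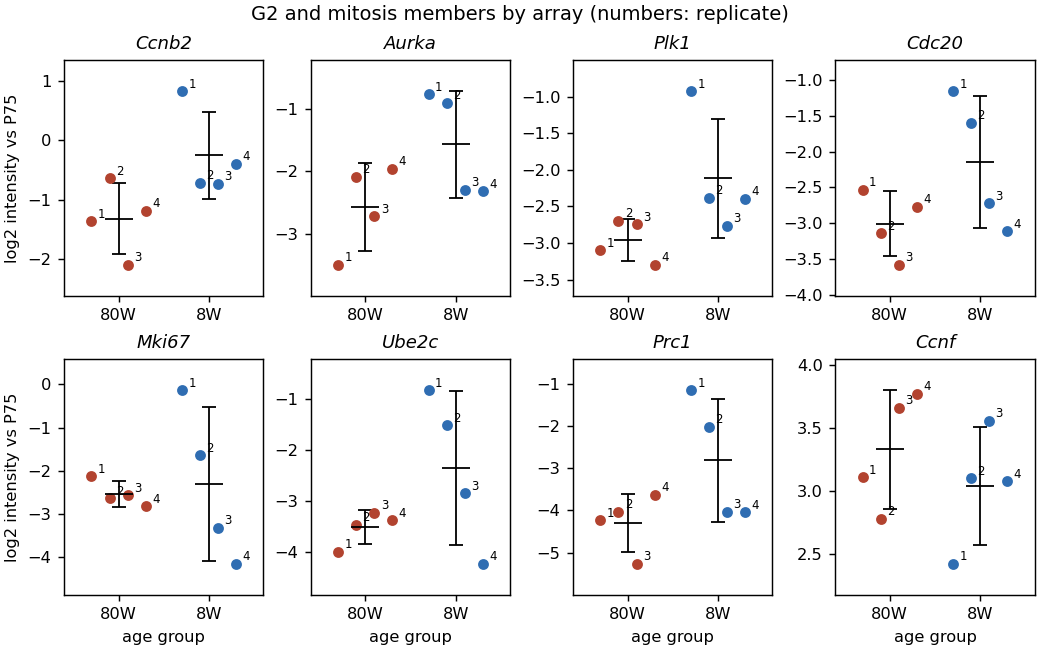
Log2 intensity relative to the 75th percentile (P75) of 8 mitotic genes on each array (points, numbered by replicate), with group mean and SD, for 80W and 8W livers on scales set per panel. The 8W replicate 1 is the highest array for all shown but Ccnf, and the 80W livers form a narrower band than the 8W livers for Plk1, Cdc20, Mki67, Ube2c and Prc1.

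The remaining mitotic genes were too dim to be tested. Top2a, the topoisomerase that untangles sister chromatids, was above background on 0 of 4 80W and 3 of 4 8W arrays, counting any of its 4 probes. Its brightest probe, above background on 2 of the 8W arrays, measured -2.96, -5.28, -5.35 and -3.87 in 80W livers, against -2.00, -3.25, -4.25 and -4.93 in 8W livers. Ccna2, cyclin A2, was above it on 0 of 4 80W and 2 of 4 8W arrays, and Ccnb1, cyclin B1, on 1 of 4 in each group. Foxm1, the transcription factor of G2 and mitotic genes, was above it on 0 of 4 80W arrays and 1 of 4 8W arrays. Nusap1, a spindle protein, was above it on 0 of 4 80W and 2 of 4 8W arrays, and Cenpe, a kinetochore motor, on 1 of 4 80W and 2 of 4 8W arrays. Kif11 and Kif20a, motors of the spindle and of cytokinesis, were each above it on 1 of 4 80W and 0 of 4 8W arrays. No fold is given for these genes, because the bound between the groups was under 1 or both groups had arrays above background with too few to test. Without a filter the adjusted p of these 8 genes and of the 6 undetected mitotic genes ran from 0.579 upward.

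Averaged over the tested genes of a stage, after centring each gene, the mitotic genes stood at -0.23, -0.18, -0.23 and -0.05 in 80W livers, against 0.80, 0.16, -0.09 and -0.18 in 8W livers. The 80W livers were close together, and 8W replicate 1 was the highest array. The G1 genes stood at -0.14, 0.16, -0.16 and -0.17 in 80W livers, against 0.52, 0.07, -0.25 and -0.03 in 8W livers, with 8W replicate 1 again the highest and the other 8W arrays inside or near the 80W range. The S-phase genes stood at -0.03, -0.11, 0.19 and 0.17 in 80W livers, against -0.07, -0.07, -0.23 and 0.15 in 8W livers. In this mean 8W replicates 1 and 2 did not stand out. For single S-phase genes, 8W replicate 1 or 2 was the highest array for 3 of 5 and the lowest for 4 of 5. Among single genes, 9 of the 25 had both 8W replicates 1 and 2 above the other 6 arrays (4 of 9 G1, 1 of 5 S-phase and 4 of 11 mitotic genes), and 2 of 25, E2f8 and Tyms, had both below. Over all tested genes 15.9% had both above and 22.4% had both below. The 8W replicate 1 was the highest array for 6 of 11 mitotic genes and for 4 of 9 G1 genes. Hepatocyte, erythroid, monocyte and cholangiocyte marker values of 8W replicates 1 and 2 are given above, and the part of those cells was not tested.

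A further 104 cell cycle genes, listed by role, gave 0 calls as well. Of these, 76 were tested, 34 higher and 42 lower in 80W livers with a median of -0.05, and 0 passed the adjusted threshold. At an unadjusted p under 0.05, 4 of the 76 were higher and 13 lower, against 7.91% and 6.14% of all tested genes. The groups did not overlap for 12 of the 76, against 8.38% of all tested genes. The medians were -0.13 over 22 G1 genes, -0.02 over 26 S-phase genes and -0.10 over 28 mitotic genes. Among G1 genes, Cdc25a, a phosphatase that activates cyclin-dependent kinases, had 0.64, 0.74, 0.44 and 0.82 in 80W livers, against 2.26, 2.36, 1.19 and 1.23 in 8W livers. The groups did not overlap, with a difference of -1.10 (SE 0.30, adjusted p = 0.210). E2f3, an activator E2F, differed by -0.84 (SE 0.25, adjusted p = 0.245) and E2f4, an E2F of the quiescence repressor, by -1.12 (SE 0.36, adjusted p = 0.276). Rbl2, the p130 pocket protein that partners E2f4 in quiescent cells, differed by 1.07 (SE 0.35, adjusted p = 0.279), and the groups of these 3 genes did not overlap either. Without 8W replicates 1 and 2 the differences were -0.55 for Cdc25a, -0.43 for E2f4 and 0.50 for Rbl2.

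Among the other S-phase genes, Mcm10, a replication initiation factor, had 3.60, 4.72, 5.30 and 4.16 in 80W livers, against 1.70, 0.24, 3.09 and 3.17 in 8W livers. Every 80W value lay above every 8W value, with a difference of 2.40 (SE 0.64, adjusted p = 0.197), or 1.32 without 8W replicates 1 and 2. Mcm6, a subunit of the replicative helicase, had the opposite sign, at 0.96 ± 0.42 in 80W and 2.19 ± 0.93 in 8W livers (SD, n = 4 each). Its difference was -1.24 (SE 0.43, adjusted p = 0.294), or -0.50 without those 2 arrays. Nasp, a histone chaperone, differed by -1.00 (SE 0.30, adjusted p = 0.246) and Slbp, which binds histone messenger RNA, by -0.82 (SE 0.31, adjusted p = 0.306). Among the other mitotic genes, Cks2, a small protein that binds cyclin-dependent kinases, had 2.79, 3.17, 2.60 and 2.86 in 80W livers, against 4.14, 3.24, 3.98 and 3.81 in 8W livers. The groups did not overlap, and the difference of -0.94 (SE 0.24, adjusted p = 0.169) was -1.04 without 8W replicates 1 and 2. Kif22, a chromosome-bound motor, differed by -0.64 (SE 0.19, adjusted p = 0.252) without overlap. Fbxo5, an inhibitor of the anaphase-promoting complex, differed by -1.02 (SE 0.36, adjusted p = 0.305), and its groups overlapped. For Fbxo5, 80W replicates 1 and 3 (-4.06 and -4.24) and 8W replicate 4 (-3.29) were not above background. Pkmyt1, an inhibitory kinase of Cdk1, differed by -0.78 (SE 0.27, adjusted p = 0.291), and its groups overlapped too.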

How the data were processed

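The scanner files hold intensity values already corrected for background by Agilent Feature Extraction 10.7.3.1, per the file headers; the submitters' processing notes give version 9.1. The authors' deposited table of intensity values matched these signals to 1% for 100% of 56605 probes on each array, with column medians of 17.4 to 34.9, so it had not been scaled between arrays. It held 0 columns of other samples.

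Each array's 75th percentile was subtracted from the log2 processed signal. Outlier spots were dropped, spots of 1 probe averaged, and probes tested if well above background on at least 4 of 8 arrays. The brightest tested probe stood for its gene. No spot was saturated. Probe positions are the files' own (mm9), and whether a probe lies in coding sequence or an untranslated region was not determined. All 42 genes and 13828 of 17565 tested names matched a RefSeq symbol. The ages were compared by lmFit and eBayes of limma 3.58.1 (R 4.3.3), with Benjamini-Hochberg adjustment over all tested genes, in a script tested on simulated data. The number of arrays limits the precision.

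The members, stages, lists and naming rule were chosen with earlier results of these data known. The rule named members past the threshold or without overlap, the 6 highest and 6 lowest differences, the 3 smallest p per stage and 11 fixed genes (21 in all), and up to 4 genes of each further list. The other members are described to account for all 42. Alternatives were normexp correction (offset 50), quantile or median scaling, other filters, probe means, another variance prior, weighted arrays, a block on replicate number, kept outliers, the deposited table and omitted arrays.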

Additional observations from a re-analysis of the deposited data

Results flagged for a closer look

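Of 86 groups of 4 values examined (genes and stage means in each age), 2 held an array far from the other 3, or 2.33%, where chance gives about 1 in 20. Rrm1, the large subunit of ribonucleotide reductase, stood at -0.54 in 8W replicate 2, while the other 8W arrays lay between -1.36 and -1.23. The mean of the 9 tested G1 genes stood at 0.16 in 80W replicate 2, while the other 80W arrays lay between -0.17 and -0.14. The check cannot find a pair of arrays that lie apart together, as 8W replicates 1 and 2 did.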

How the results depend on the processing

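In limma 0 members passed the adjusted threshold under any of 22 other settings of processing or omission of arrays, and 0 to 9 had an unadjusted p under 0.05. Among the 76 other cell cycle genes, 0 passed except 1 lower gene with array weights, Cks2 (adjusted p = 0.0270, against 0.0793 to 0.485 over its other settings). Over all tested genes, 58 were higher and 5 lower in 80W livers. These counts were 20 and 1 with signal required on all 8 arrays, and 136 and 36 with array weights, which were lowest for 8W replicates 1 and 2 (0.436 and 0.181). The lower count alone was 8 with quantile scaling, 13 with median scaling, 8 with no filter, 9 with the mean of probes and 8 with the trended and robust prior. With 1 array omitted the higher count ran from 25 (without 8W replicate 1) to 69 and the lower from 2 to 14. Without 8W replicates 1 and 2 they were 12 and 2. The median of all genes was 0.02, but -0.09 with median scaling and 0.19 with no filter. It was -0.05 with array weights and -0.06 without 8W replicates 1 and 2.

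The G1 median of -0.52 was -0.18 with array weights and -0.093 without 8W replicates 1 and 2, and ran from -0.61 to -0.098 with 1 array omitted. The median of further G1 genes ran from -0.25 to 0.043 with 1 array omitted. That of further mitotic genes, -0.10, was -0.21 with median scaling, 0.036 with no filter and -0.0044 with array weights. The S-phase and mitotic medians moved by less than the spread between arrays.

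Of 37 genes followed, 27 kept their sign in every setting and 10 did not, each with an adjusted p above the threshold, and the causes were not tested. With normexp and percentile scaling the differences were 0.044 for Ccnd3, 0.074 for Cdk1 and 0.062 for Kif23, and with normexp and quantile scaling Cdk1 was at 0.0066. With the mean of probes Ccnd3 was at 0.00097. With array weights Cdk2 was at 0.11, E2f2 at 0.80, Rrm1 at 0.023 and Mki67 at 0.75. Without 8W replicates 1 and 2 Cdk2 was at 0.19, E2f2 at 1.09, Rrm1 at 0.057, Mki67 at 1.19 and Birc5 at 0.024. The 8W arrays left in that setting were not above background for Mki67. With 1 array omitted the difference ran from -0.20 to 0.068 for Ccnd3, -1.24 to 0.017 for E2f2, -0.18 to 0.096 for Rrm1 and -0.17 to 0.047 for Rrm2. It ran from -0.84 to 0.50 for Mki67, -0.23 to 0.046 for Cdk1, -0.066 to 0.34 for Mad2l1, -0.38 to 0.066 for Kif23 and -0.44 to 0.097 for Birc5.

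With the replicate number as a block, 17 genes were lower and 0 members passed. Same-numbered arrays of the 2 groups correlated at 0.026 to 0.14 in their deviations, and 2 of 4 80W arrays correlated best with their own number, so the numbers were not taken to pair the samples. The bounds without 8W replicates were chosen after seeing the data.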
